A study of Mus musculus with 6 samples.

Results

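The nuclear genes of oxidative phosphorylation encode most subunits of the respiratory complexes I to V of the inner mitochondrial membrane. They were taken by symbol (Nduf with a, b, c, s or v and a digit, Sdha to Sdhd, Uqcr, Cyc1, Cox4 to Cox8, and Atp5) from a table of read counts of 4T1 cells, a mouse mammary carcinoma line, with at least 50 reads over the 5 libraries that held reads. Of 23481 genes in the table, 85 matched by symbol and 76 reached that minimum: 35 of complex I, 4 of complex II, 9 of complex III, 11 of complex IV and 17 of complex V. All 76 were among the 12457 genes tested. The table holds none of the genes encoded by mitochondrial DNA.

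The cells, named 4T1_T in the deposited table, grew in DMEM with non-essential amino acids and were infected with 1 of 3 short hairpins. Both shAsns-1 and shAsns-2 target Asns, the gene of asparagine synthetase, and the control hairpin shRenilla targets a luciferase that mouse cells lack. All groups therefore carry a hairpin and none is uninfected. The labels give each hairpin a library A and a library B, but nothing says that the letters stand for cultures grown apart. P-values here measure only the spread between these libraries, which may be technical. The comparisons ask which transcripts differ between libraries of these hairpins, and the level of Asns itself is given next.

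No gene had a read in shAsns-1 B, which left 1 library for shAsns-1 and 2 each for shAsns-2 and shRenilla. Gene reads per library ranged from 10244753 to 15955168. Asns, the targeted gene, had 46.5 and 44.7 CPM in the shAsns-2 pair and 58.7 and 56.3 CPM in the shRenilla pair (CPM is reads per 1000000 reads of tested genes, with scaled library sizes, and pairs are given in the order A, B), a log2 fold change of -0.34 (SE 0.09, edgeR adjusted p = 0.216). In the library labelled shAsns-1 Asns was at 109 CPM, higher than in shRenilla by 0.92 on the log2 scale (SE 0.10, edgeR adjusted p = 6.27e-05), which goes against its label. That library also had reads at 17672 genes against 15052 to 15392 in the others, and its olfactory receptor genes, silent in most cells, summed to 41.5 reads per 1000000 gene reads against 7.99 to 11.9. Epithelial markers (6 of 6 with reads) summed on the same scale to 869.5 in it and to 1017 to 1085 in the others. Within that sum Krt14 was at 2.83 against 11.8 to 13.2, and Epcam at 33.6 against 53.5 to 63.7. Krt18 alone lay within the range of the others, at 309 against 288 to 336. Of the other cell types, the 6 leukocyte markers summed to between 4.39 and 6.54 in each library, and the 4 erythroid markers were at 0 reads. The part of these differences in the results below was not tested.

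Complexes I and II take electrons from NADH and succinate, complex III passes them from ubiquinol to cytochrome c, and complex IV hands them to oxygen. Complexes I, III and IV pump protons as they do so, and complex V, the ATP synthase, makes ATP as protons flow back through its c ring. Most subunits are encoded in the nucleus and imported, while a few hydrophobic core subunits are made inside the mitochondrion. Carcinoma cells use the chain for ATP and also to regenerate NAD+, which the synthesis of aspartate, the substrate of asparagine synthetase, requires.

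In these cells the nuclear genes of the chain were measured close to their control levels with shAsns-2 and in the library labelled shAsns-1, whose Asns level goes against its label. Asns itself had a log2 fold change of only -0.34 with shAsns-2 and did not pass the test. These values therefore do not tell how the genes respond to a strong loss of Asns. No member passed the test with shAsns-2 against shRenilla, 1 of 76 (Cyc1 of complex III) was lower in the library labelled shAsns-1, and none passed between the hairpins. Members that came near the threshold without passing it were Atp5g1, a gene of the ATP synthase c ring, with shAsns-2, and Atp5l, Ndufc1 and Cox5a in the library labelled shAsns-1.

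The c ring is made from members that encode the same protein from different promoters. Atp5g1, Atp5g2 and Atp5g3 give the same mature c subunit after their different targeting peptides are removed. Their values differed from one another in these libraries, so the 250 bases before each RefSeq start (GRCm38.p6, minus strand, 5′ to 3′) are shown for comparison. Capitals mark CGCATGCG, letters like those bound by NRF1, a regulator of respiratory genes.
Atp5g1, chr11:96075632-96075881: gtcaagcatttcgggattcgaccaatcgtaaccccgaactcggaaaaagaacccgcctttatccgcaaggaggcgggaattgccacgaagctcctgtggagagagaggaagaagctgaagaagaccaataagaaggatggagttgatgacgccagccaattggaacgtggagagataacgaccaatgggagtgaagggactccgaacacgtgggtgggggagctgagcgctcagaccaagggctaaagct
Atp5g2, chr15:102671048-102671297: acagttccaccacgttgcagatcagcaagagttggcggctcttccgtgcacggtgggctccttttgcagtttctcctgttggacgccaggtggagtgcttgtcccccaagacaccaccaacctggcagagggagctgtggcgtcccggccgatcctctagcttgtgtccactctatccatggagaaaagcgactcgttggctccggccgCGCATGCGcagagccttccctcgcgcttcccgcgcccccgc
Atp5g3, chr2:73911327-73911576: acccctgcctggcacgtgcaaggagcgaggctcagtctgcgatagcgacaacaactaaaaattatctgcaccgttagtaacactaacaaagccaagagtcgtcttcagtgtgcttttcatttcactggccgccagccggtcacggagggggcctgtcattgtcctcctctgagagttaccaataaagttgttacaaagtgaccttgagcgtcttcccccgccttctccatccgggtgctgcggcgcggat
Only the Atp5g2 window held those letters, 41 to 34 bases before the start. None of the 3 windows held CCGGAAG or ATGGCG, letters like those of ETS factors and of YY1, on either strand. Of the 76 members, 64 had a promoter in the RefSeq table. On either strand of the same window, CGCATGCG was found in 10.9% of these (7 of 64) and in 1.75% of the 27025 genes of the table. CCGGAAG was found in 18.8% of members and 7.83% of genes, and ATGGCG in 14.1% and 6.53%. None of these 3 runs of letters contains another. Of the 64 windows, that of Atp5j, the coupling factor of the ATP synthase, alone held all 3. The 27025 genes were not limited to those with reads here, nor matched to the members in level or GC content. These are matches of letters, not measured binding.

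Per kilobase of transcript, the members were among the abundant messages of the shRenilla cells. Their median level was 52.0 CPM per kilobase, against 10.1 over 12276 tested genes with a known length, and 74 of 76 lay above that median. Atp5b, the catalytic β subunit of the ATP synthase, stood highest at 1863 CPM per kilobase, rank 12 of all genes. It alone took 37.0 to 40.8% of the members' reads in the 5 libraries. Below it followed Ndufb9 (525), Atp5g3 (335), Cox8a (305), Atp5c1 (282), Atp5a1 (279) and Cox6a1 (279), all in CPM per kilobase. The last 3 lie within their spread of one another. The median level was 40.2 CPM per kilobase in complex I, 55.3 in complex II, 47.4 in complex III, 107 in complex IV and 77.7 in complex V. The lowest levels were those of Atp5sl (3.42) and Atp5s (3.48), which are named after the ATP synthase but not counted among its subunits.

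**Figure D1:**
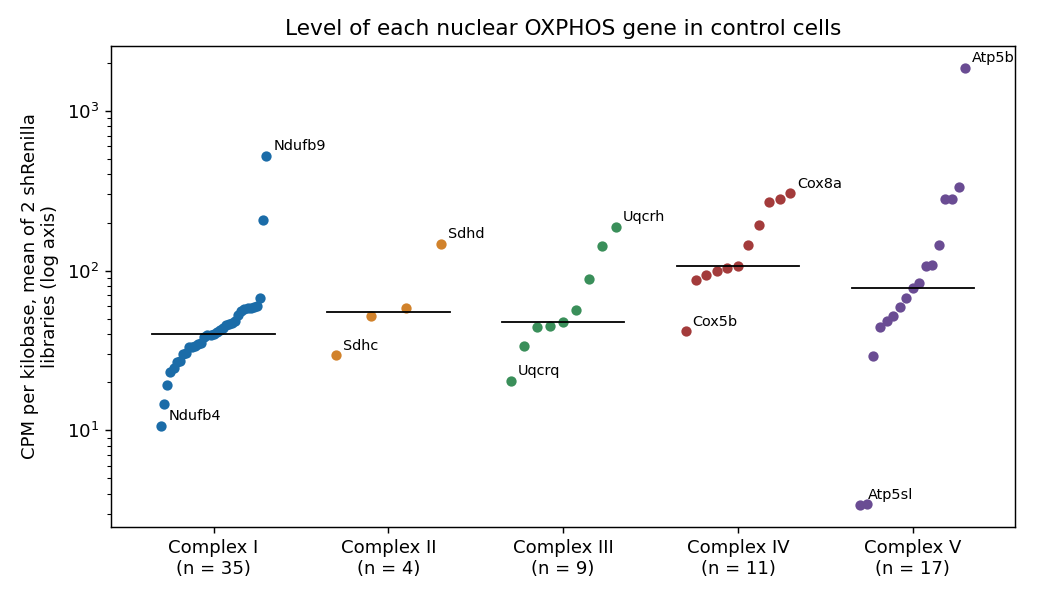
Level of each of the 76 members in control cells, as CPM per kilobase of transcript (mean of 2 shRenilla libraries, log axis), by complex. Each point is 1 gene, the line is the median of the complex, and the highest and lowest member are named. Atp5b (1863) and Ndufb9 (525) stand above the medians of their complexes, 77.7 and 40.2.

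Ndufb9, an accessory subunit of the membrane arm of complex I, was at 13.1 times the median of its complex. Its reads were steady, at 345 CPM in the library labelled shAsns-1, 367 and 369 CPM with shAsns-2, and 370.1 and 369 CPM with shRenilla. In the annotation (GENCODE vM21, GRCm38) the gene lies at chr15:58933756-58939488. Its neighbours on that chromosome were far lower per kilobase, at 52.0 for Rnf139, 52.5 for Tatdn1 and 80.0 for Mtss1. The tally of reads that align in several places was 0% in the 5 libraries, which does not tell how such reads were treated. Strand was not stated either. Levels of members with processed copies elsewhere in the genome are therefore uncertain. In the same annotation 19 of 76 members share exon bases with another gene that has its symbol in the table. The largest share among these was that of Ndufa13, which has 30.0% of its exon bases in common with Tssk6. With genes whose symbols are not in the table, Ndufb6 shares 39% (Smim27) and Ndufb9 19.5% (Gm49356, on the same strand).

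The isoforms present were those of most tissues. Cox4i1, Cox6a1, Cox6b1, Cox7a2 and Cox8a had 43.4 to 215 CPM in the 5 libraries. Their relatives of muscle, lung or testis were all but absent, with 3 reads in all for Cox4i2, 2 for Cox6a2, 3 for Cox6b2, 6 for Cox7a1 and 3 for Cox8b. Cox7b2 and Cox8c had 0 reads, for which 3 reads, or 0.188 to 0.293 reads per 1000000 by library, is the limit of detection from counting error only. Ndufa4, now known as a subunit of complex IV but counted here with complex I by its symbol, had 123 to 153 CPM. Its hypoxia-induced relative Ndufa4l2 had 8 reads in all, and was the symbol just below the minimum of 50 together with Cox7a1. Just above it came Atp5sl with 353 reads and Atp5s with 375. Ndufs5, a standard subunit of complex I, was listed at 0 in all libraries, which need not mean that the transcript is absent.

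Summed over each complex, the transcripts differed little between libraries. The 76 members took 0.937 to 1.00% of the gene reads. The 35 complex I genes summed to 1688 CPM in the library labelled shAsns-1, 1656 and 1686 CPM with shAsns-2, and 1689 and 1693 CPM with shRenilla. The 11 complex IV genes summed to 1269.5 CPM in the library labelled shAsns-1, 1238 and 1207 CPM in shAsns-2, and 1147 and 1168 CPM in shRenilla. The 3 shAsns libraries thus stood at 104 to 109.7% of the shRenilla mean for complex IV, above both controls. For complex V they stood at 104 to 109.9%, against 96.9 and 103% in the controls. That rested on Atp5b: the 16 other genes of complex V summed to 1983 CPM in the library labelled shAsns-1, 1942 and 1928 CPM with shAsns-2, and 1937 and 1870.2 CPM with shRenilla, so that shAsns-2 B lay within the range of the controls. For complex II the library labelled shAsns-1 stood at 108%, above the controls at 94.5 and 105%. The shAsns-2 libraries, at 98.4 and 103%, lay between those controls. For complex III all 3 shAsns libraries lay between the controls, which stood at 96.2 and 104%. Over all 76 members the 3 shAsns libraries stood at 103 to 106%, against 98.3 and 102% in the controls. Without Atp5b they stayed above both controls. Those sums were 6076 CPM in the library labelled shAsns-1, 5915 and 5924 CPM with shAsns-2, and 5887 and 5836 CPM with shRenilla. No test was run on these sums. The reads give levels relative to the other genes, and in such bulk samples fewer cells of a type and less RNA per cell cannot be told apart.

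**Figure D2:**
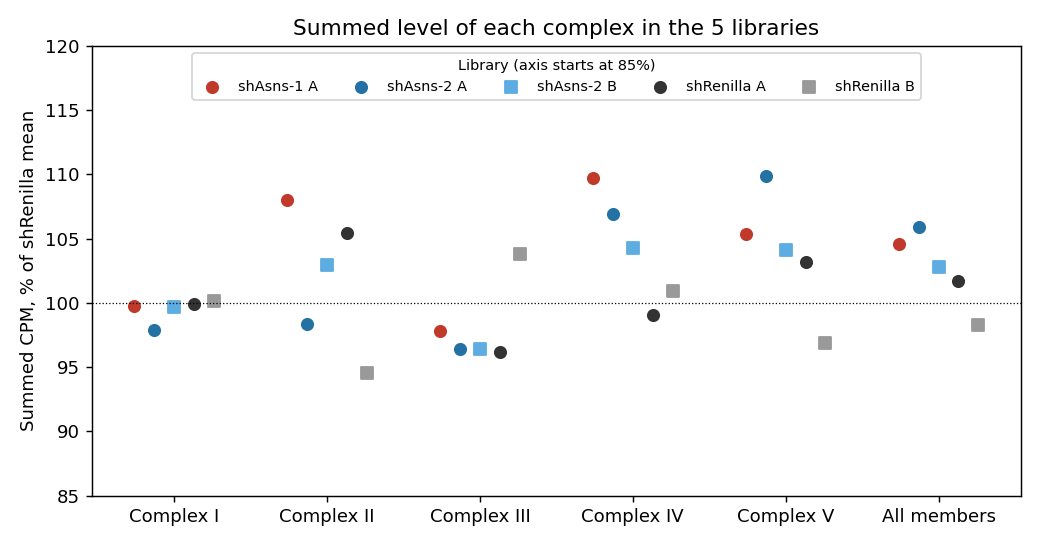
Summed CPM of the genes of each complex and of all 76 members, as a percentage of the mean of the 2 shRenilla libraries (axis from 85%). Each point is 1 library. All points lie between 94.5 and 109.9%. The 3 shAsns libraries lie above both controls in complex IV, over all members and, only with Atp5b counted, in complex V.

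With shAsns-2 against shRenilla, 0 of 76 members had an adjusted p under 0.05 by the quasi-likelihood test of edgeR. Of all genes tested, 0.0642% passed (8 of 12457), so few genes of any kind were called in this comparison. DESeq2 and limma-voom also called 0 members. At an unadjusted p under 0.05 there were 13 higher members, where 5.59% of all genes were higher, and 4 lower members, where 4.05% of all genes were lower. Both shAsns-2 libraries lay above both controls for 22 members and below both for 19, against 20.6% and 20.7% of all genes. The median log2 fold change was 0.00 over the members and -0.00 over all genes. By complex it was -0.01 in I, -0.03 in II, -0.11 in III, 0.02 in IV and 0.14 in V.

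In the library labelled shAsns-1 against shRenilla, 1 of 76 members passed, and it was lower. Of all genes, 4.37% passed and 2.06% passed as lower. At an unadjusted p under 0.05 there were 10 higher members, against 10.0% of all genes, and 3 lower, against 9.54%. This library lay above both controls for 37 members and below both for 21, against 37.4% and 38.5% of all genes. The median log2 fold change was 0.07 over the members, beside -0.01 over all genes. By complex it was -0.01 in I, 0.08 in II, 0.11 in III, 0.15 in IV and 0.08 in V.

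Between shAsns-2 and the library labelled shAsns-1, 0 of 76 members passed, where 2.14% of all genes did. At an unadjusted p under 0.05 there were 3 members higher in shAsns-2 (8.87% of all genes) and 6 lower (7.89% of all genes). DESeq2 and limma-voom also called none. With 1 library on that side, hairpin and library cannot be told apart. The comparisons with shRenilla share the same 2 control libraries. Where the libraries of both hairpins lie on the same side of these controls, that is therefore not independent replication. The share of all genes for which all shAsns libraries do so was not counted.

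The fitted intervals limit how large an undetected difference between these libraries could be. They rest on the spread between libraries, which may be technical, and need not cover variation between cultures grown apart. The shAsns-1 side has 1 library and is taken to vary as the other groups do. Each interval is for a single gene. All 76 members had 95% intervals within a 2-fold change in each of the 3 comparisons. For 63 members with shAsns-2 and 60 in the library labelled shAsns-1 the interval stayed within 0.5 on the log2 scale. The median SE of a member's log2 fold change was 0.10 with shAsns-2 and 0.12 in the library labelled shAsns-1.

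**Figure D3:**
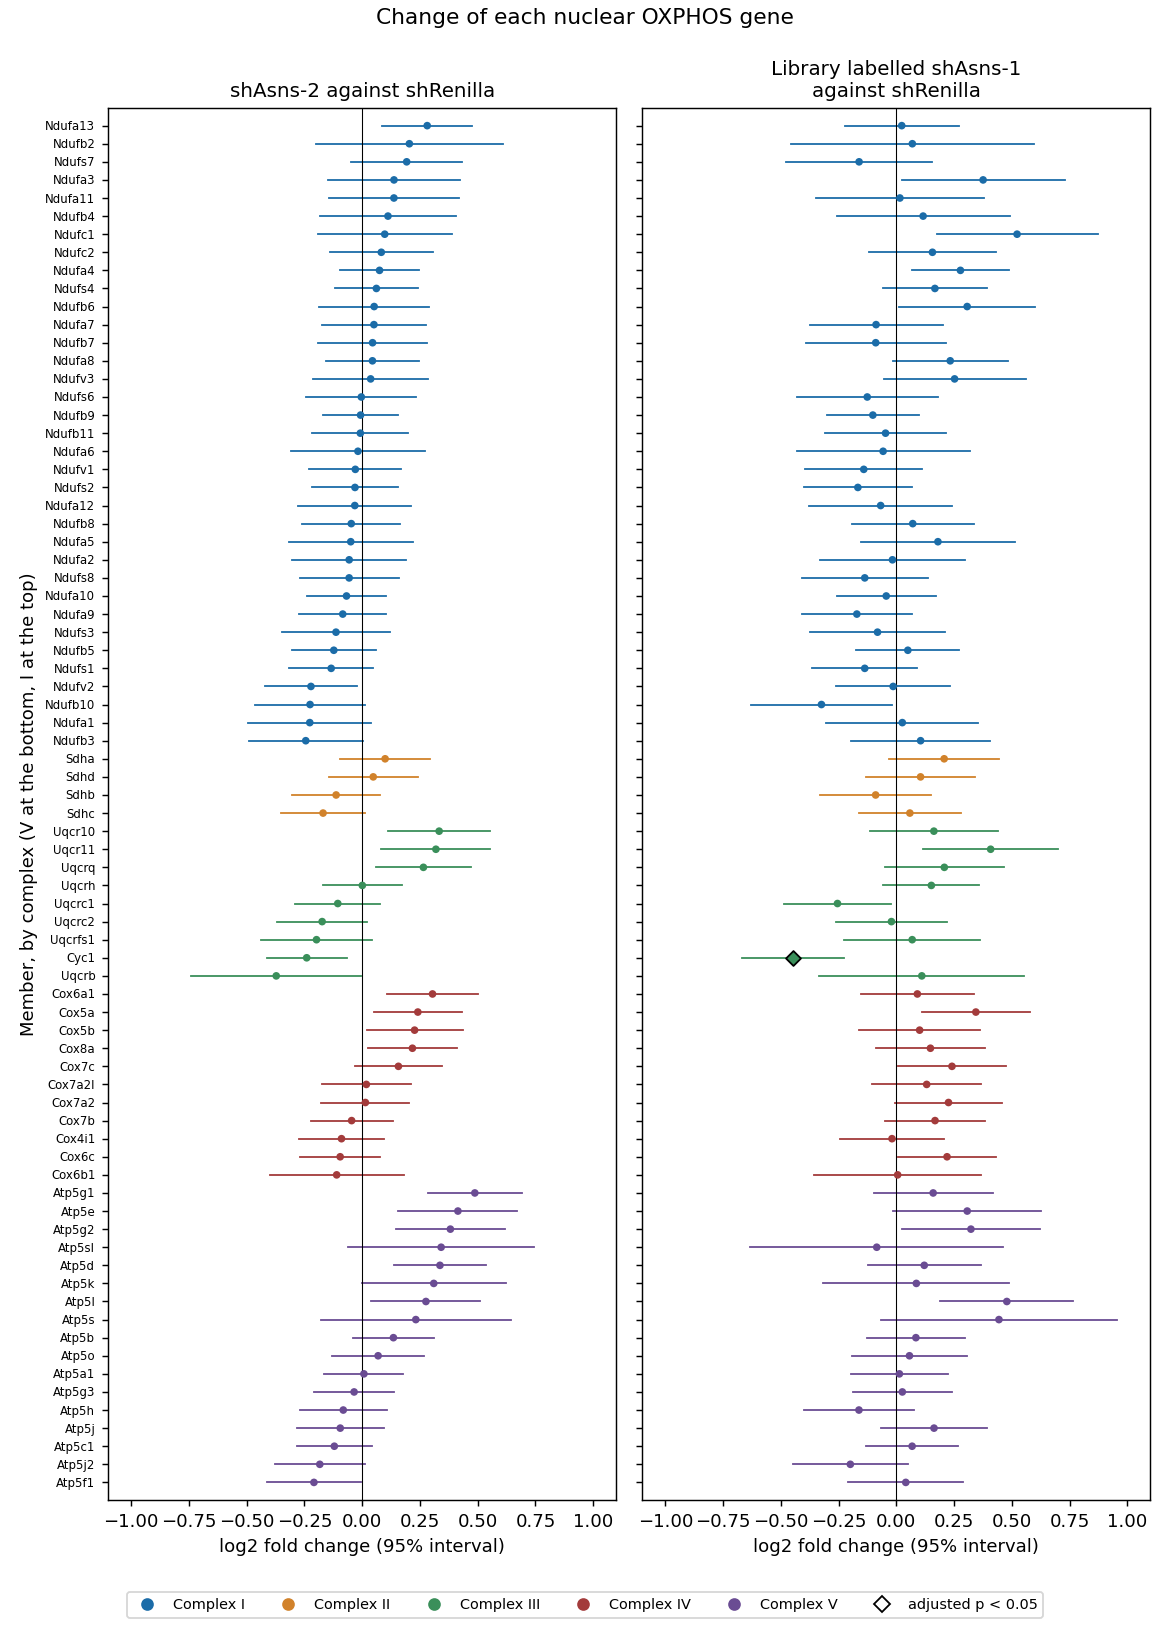
Fitted log2 fold change of each member against shRenilla with its 95% interval, for shAsns-2 (left) and the library labelled shAsns-1 (right), ordered within each complex by the left panel. Of 76 intervals, 59 on the left and 63 on the right cross 0, and the diamond marks Cyc1, the one member with an adjusted p under 0.05 (-0.45, right).

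Complex I oxidises NADH. None of its 35 members was called in any comparison. Its 7 nuclear core subunits, which bind NADH and carry the flavin and the iron-sulfur clusters, had a median log2 fold change of -0.14 in the library labelled shAsns-1. All 7 were below 0 there and 6 of 7 were below both controls, where 51.3% and 38.5% of all genes were, and none passed the test. With shAsns-2 the median of the 7 was -0.06, with 6 below 0 and 3 below both controls, where 50.3% and 20.7% of all genes were. The 28 other members of the complex had medians of 0.04 and 0.02 in the same order.

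Ndufs7 holds the iron-sulfur cluster next to the ubiquinone site. It was at 18.4 CPM in the library labelled shAsns-1, 24.6 and 22.6 CPM in shAsns-2, and 21.6 and 19.5 CPM in shRenilla. The library labelled shAsns-1 was thus lowest and shAsns-2 highest, with a difference of 0.35 on the log2 scale between them (SE 0.15, edgeR adjusted p = 0.245). Ndufc1, a small accessory subunit, was at 21.9 CPM in the library labelled shAsns-1, 16.4 and 16.2 CPM in shAsns-2, and 13.3 and 17.2 CPM in shRenilla. It had the highest log2 fold change of the complex in the library labelled shAsns-1, at 0.52 (SE 0.16, edgeR adjusted p = 0.0826). The difference between the hairpins was -0.42 (SE 0.17, edgeR adjusted p = 0.207). The call of Ndufc1 turned on 1 control, since without shRenilla B its log2 fold change was 0.72 (edgeR adjusted p = 0.0213) and without shRenilla A 0.34 (edgeR adjusted p = 0.233).

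Ndufb10, an accessory subunit of the membrane arm, was at 17.9 CPM in the library labelled shAsns-1, 19.0 and 19.3 CPM in shAsns-2, and 21.8 and 23.1 CPM in shRenilla. All 3 shAsns libraries lay below both controls, with -0.32 in the library labelled shAsns-1 (SE 0.14, edgeR adjusted p = 0.224). Ndufa13 was at 45.1 and 46.1 CPM in shAsns-2 against 37.0 and 38.0 CPM in shRenilla and 38.1 CPM in the library labelled shAsns-1. Its log2 fold change with shAsns-2 was 0.28 (SE 0.09, edgeR adjusted p = 0.331), the highest of the complex. The lowest with shAsns-2 was Ndufb3, at -0.24 (SE 0.12, edgeR adjusted p = 0.52). Its 29.5 and 30.4 CPM in shAsns-2 lay just below 31.2 CPM in shRenilla A, whereas shRenilla B was at 40.0 CPM and the library labelled shAsns-1 at 38.2 CPM.

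Complex II is succinate dehydrogenase, shared with the tricarboxylic acid cycle, and all its 4 subunits are nuclear. Sdha, the flavoprotein, was at 197 CPM in the library labelled shAsns-1, 181 and 184 CPM in shAsns-2, and 187 and 153 CPM in shRenilla. The shAsns-2 libraries lay between the controls, and the log2 fold changes were 0.10 with shAsns-2 (SE 0.09) and 0.21 in the library labelled shAsns-1 (SE 0.11). Without shRenilla B the first value was -0.04. Sdhb, the iron-sulfur subunit, was at 55.7 CPM in the library labelled shAsns-1, 52.0 and 57.5 CPM in shAsns-2, and 57.4 and 61.3 CPM in shRenilla. In the library labelled shAsns-1 its log2 fold change was -0.09 (SE 0.11, edgeR adjusted p = 0.721).

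The membrane anchors Sdhc and Sdhd hold the heme and the ubiquinone site. Sdhc was at 97.4 CPM in the library labelled shAsns-1, 81.1 and 85.2 CPM in shAsns-2, and 89.3 and 97.8 CPM in shRenilla. Both shAsns-2 libraries were lower than all others, by -0.17 against shRenilla (SE 0.09, edgeR adjusted p = 0.549) and by -0.23 against the library labelled shAsns-1 (SE 0.11, edgeR adjusted p = 0.288). Sdhd ranged from 165 to 198 CPM, and both extremes were shRenilla libraries.

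Complex III held the only call. Cyc1, cytochrome c1, takes electrons from the Rieske protein and hands them to cytochrome c. It was at 98.2 CPM in the library labelled shAsns-1, 109.5 and 117 CPM with shAsns-2, and 129.8 and 138 CPM with shRenilla. All 3 shAsns libraries lay below both controls, and the library labelled shAsns-1, whose Asns was higher than in the controls, was lowest. Cyc1 fell by 0.45 on the log2 scale in the library labelled shAsns-1 (0.734-fold, SE 0.10, 95% interval -0.67 to -0.23, edgeR adjusted p = 0.0234). With shAsns-2, 113 ± 5.22 CPM (SD, n = 2) stood against 134 ± 5.62 CPM (SD, n = 2), a log2 fold change of -0.24 (SE 0.08, 95% interval -0.41 to -0.07, edgeR adjusted p = 0.353). The difference between the hairpins was 0.21 (SE 0.10, edgeR adjusted p = 0.336). In GENCODE vM21 the gene lies at chr15:76343523-76346260 of GRCm38.

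The call of Cyc1 was kept by DESeq2 (adjusted p = 0.0357) and limma-voom (adjusted p = 0.0243). It was lost when a trend of counts with GC content was removed (-0.37, edgeR adjusted p = 0.0714). It was also lost without shAsns-2 A (edgeR adjusted p = 0.0685) or shAsns-2 B (edgeR adjusted p = 0.0678), where the fold change stayed at -0.45 and the spread was estimated from fewer libraries.

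The other subunits of complex III spread widely and in both directions. Uqcrb, which lies at the ubiquinone site, was at 19.3 CPM in the library labelled shAsns-1, 14.0 and 13.6 CPM in shAsns-2, and 13.8 and 22.1 CPM in shRenilla. The controls differed more from each other than either did from the shAsns library nearest to it. Its log2 fold change with shAsns-2 was -0.37 (SE 0.17, edgeR adjusted p = 0.515), the lowest of the 76 members, and the difference between the hairpins was -0.48 (SE 0.22, edgeR adjusted p = 0.28). Without shRenilla A the first value was -0.68 (edgeR adjusted p = 0.066); leaving out shRenilla B instead gave -0.00 (edgeR adjusted p = 0.998). Uqcr10, a small subunit next to cytochrome c1, was at 69.4 CPM in the library labelled shAsns-1, 82.0 and 74.5 CPM in shAsns-2, and 69.3 and 54.6 CPM in shRenilla. Both shAsns-2 libraries lay above both controls, by 0.33 (SE 0.10, edgeR adjusted p = 0.318). Without shRenilla A this was 0.52 (edgeR adjusted p = 0.0634), and without shRenilla B 0.17 (edgeR adjusted p = 0.653).

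Uqcr11, another small subunit, was at 28.0 CPM in the library labelled shAsns-1, 26.9 and 25.8 CPM in shAsns-2, and 22.5 and 19.7 CPM in shRenilla. Each shAsns library was higher than both controls. The log2 fold changes were 0.32 with shAsns-2 (SE 0.11, edgeR adjusted p = 0.368) and 0.41 in the library labelled shAsns-1 (SE 0.14, edgeR adjusted p = 0.103). Uqcrh, the hinge protein at the docking site of cytochrome c, was the most abundant of the complex per kilobase (189) and steady, at 102 to 104 CPM in shAsns-2 and shRenilla and 115 CPM in the library labelled shAsns-1.

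**Figure D4:**
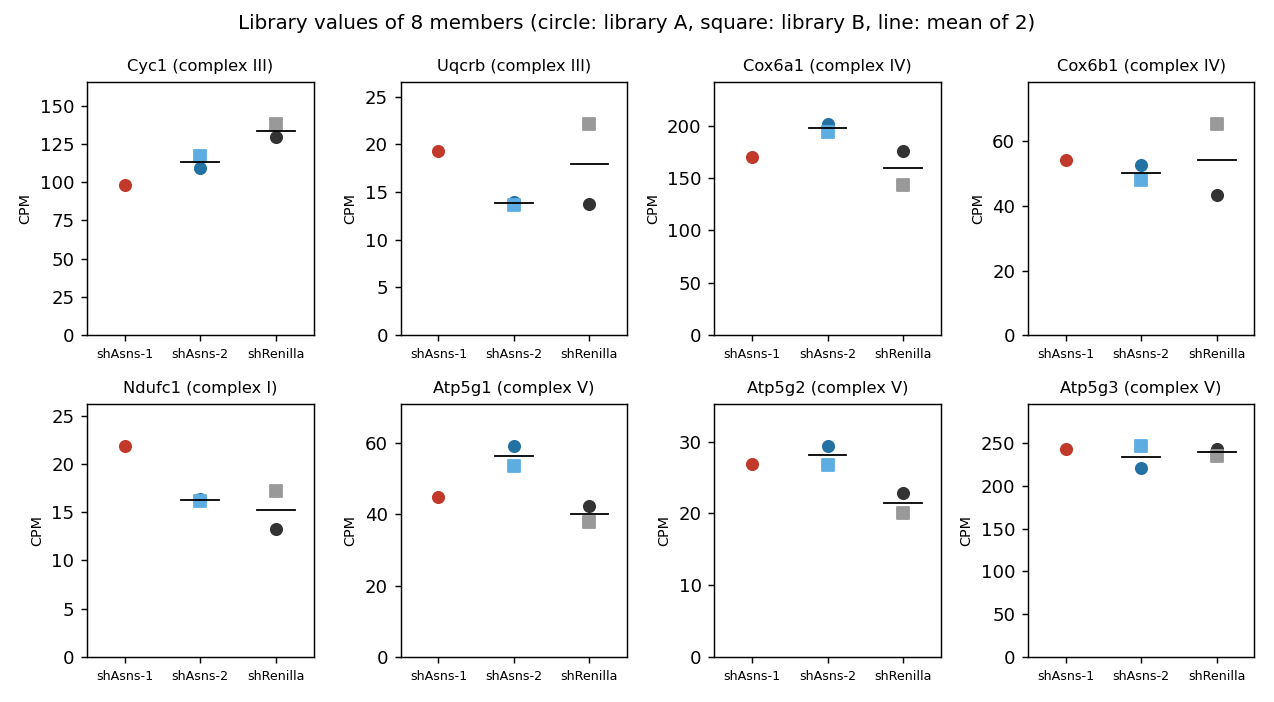
CPM of 8 members in the 5 libraries (y axes from 0), by hairpin. Circles are libraries A, squares libraries B, and lines the mean of 2 libraries. Cyc1 is lower in all 3 shAsns libraries (98.2 to 117) than in both shRenilla libraries (129.8 and 138), Atp5g1 and Atp5g2 are higher in shAsns-2, and the controls of Uqcrb and Cox6b1 lie far apart.

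Complex IV, cytochrome c oxidase, had 10 of 11 members above 0 in the library labelled shAsns-1, where 6064 of 12457 genes were. Of the 11, 8 were above both controls (37.4% of all genes were above both), with none called. The 11 include Cox7a2l, which an alternative leaves out with Atp5s and Atp5sl, and do not include Ndufa4. Cox5a, a matrix-side subunit that packs against Cox4i1, was at 87.6 CPM in the library labelled shAsns-1, 82.0 and 81.2 CPM in shAsns-2, and 73.9 and 64.0 CPM in shRenilla. All 3 shAsns libraries were above both controls. The log2 fold changes were 0.34 in the library labelled shAsns-1 (SE 0.11, edgeR adjusted p = 0.0856) and 0.24 with shAsns-2 (SE 0.09, edgeR adjusted p = 0.412). Without shRenilla A the first reached 0.45 and was called (edgeR adjusted p = 0.0439); leaving out shRenilla B instead gave 0.25 (edgeR adjusted p = 0.149). Cox4i1, the regulatory subunit that binds ATP, was at 198 CPM in the library labelled shAsns-1, 192 and 184 CPM in shAsns-2, and 185 and 215 CPM in shRenilla. In the library labelled shAsns-1 its log2 fold change was -0.02 (SE 0.11), the lowest of the complex, and its sign turned in 3 alternatives.

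Cox6a1 was at 170.0 CPM in the library labelled shAsns-1, 201 and 193 CPM in shAsns-2, and 176 and 143 CPM in shRenilla. It had the highest log2 fold change of the complex with shAsns-2, at 0.30 (SE 0.09, edgeR adjusted p = 0.303), and differed by 0.21 between the hairpins (SE 0.12, edgeR adjusted p = 0.374). Without shRenilla A the first value was 0.46 and was called (edgeR adjusted p = 0.0498); leaving out shRenilla B instead gave 0.17 (edgeR adjusted p = 0.618). Cox6c was at 113 CPM in the library labelled shAsns-1, against 88.2 and 92.6 CPM in shAsns-2 and 98.4 and 94.9 CPM in shRenilla. It stood highest in the library labelled shAsns-1 and lowest in shAsns-2, a difference of -0.31 between the hairpins (SE 0.10, edgeR adjusted p = 0.118). That difference was called without shRenilla B (edgeR adjusted p = 0.0494). Cox6b1, which links the monomers of the dimer, was at 43.4 and 65.3 CPM in the controls. The 3 shAsns libraries lay between these, at 48.0 to 54.4 CPM, and the log2 fold change with shAsns-2 was -0.11 (SE 0.14).

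Complex V, as grouped here by symbol, had the highest median with shAsns-2, 0.14. Of its 17 members, 11 were above 0 (6185 of 12457 genes were) and 9 above both controls (20.6% of all genes were above both), none of them called. The median and both counts include Atp5s (0.23) and Atp5sl (0.34), which are not counted among the subunits of the ATP synthase. Both lie above that median and above both controls. Without them the middle value of complex V is that of Atp5o, 0.07. With Cox7a2l also left out, as in an alternative, the median of complex IV lies midway between Cox7a2 (0.01) and Cox7c (0.16). That is above 0.07, so the highest rank of complex V does not hold without these genes. Of the F1 head of complex V, Atp5b was at 3785 CPM in the library labelled shAsns-1, 4073 and 3768 CPM in shAsns-2, and 3708 and 3430.1 CPM in shRenilla. All 3 shAsns libraries were above both controls, by 0.14 with shAsns-2 (SE 0.08, edgeR adjusted p = 0.623) and 0.08 in the library labelled shAsns-1 (SE 0.10, edgeR adjusted p = 0.703). The central stalk subunits δ and ε are named here because alternatives called them, a choice made after their values were seen. Atp5d (δ) was at 147 CPM in the library labelled shAsns-1, 188 and 154 CPM in shAsns-2, and 133 and 137 CPM in shRenilla, with 0.34 for shAsns-2 (SE 0.09, edgeR adjusted p = 0.235). Atp5e (ε) was at 55.9 CPM in the library labelled shAsns-1, 60.0 and 60.5 CPM in shAsns-2, and 52.8 and 37.4 CPM in shRenilla. Its log2 fold changes were 0.41 with shAsns-2 (SE 0.12, edgeR adjusted p = 0.282) and 0.31 in the library labelled shAsns-1 (SE 0.15, edgeR adjusted p = 0.278). For Atp5e the low control decided the size, since without shRenilla A the values were 0.69 (edgeR adjusted p = 0.0326) and 0.58 (edgeR adjusted p = 0.0309). Without shRenilla B they were 0.19 (edgeR adjusted p = 0.618) and 0.08 (edgeR adjusted p = 0.682).

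Of the c ring genes whose promoters are printed above, Atp5g1 and Atp5g2 were higher with shAsns-2 without passing the test, and Atp5g3 hardly differed. Each of the 3 lay above both controls in the library labelled shAsns-1 (Atp5g3 barely), where 37.4% of all genes did, and none was called. Atp5g1 was at 44.8 CPM in the library labelled shAsns-1, 59.2 and 53.5 CPM with shAsns-2, and 42.3 and 37.8 CPM with shRenilla. Both shAsns-2 libraries lay above all others, and the library labelled shAsns-1 lay just above the controls. With shAsns-2, 56.3 ± 4.02 CPM (SD, n = 2) stood against 40.0 ± 3.20 CPM (SD, n = 2), a log2 fold change of 0.49 (SE 0.10, 95% interval 0.28 to 0.69, edgeR adjusted p = 0.0892). This was the highest value of the 76 members with shAsns-2, and it did not pass. In the library labelled shAsns-1 it was 0.16 (SE 0.12, edgeR adjusted p = 0.517), and the difference between the hairpins was 0.33 (SE 0.12, edgeR adjusted p = 0.183).

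Atp5g2 was at 26.9 CPM in the library labelled shAsns-1, 29.3 and 26.8 CPM in shAsns-2, and 22.8 and 20.1 CPM in shRenilla. All 3 shAsns libraries were above both controls, by 0.38 with shAsns-2 (SE 0.11, edgeR adjusted p = 0.276) and 0.32 in the library labelled shAsns-1 (SE 0.14, edgeR adjusted p = 0.211). Atp5g3, the main source of the c subunit message here at 335 CPM per kilobase against 67.2 for Atp5g1 and 29.3 for Atp5g2, was at 243 CPM in the library labelled shAsns-1, 220.3 and 246 CPM in shAsns-2, and 243 and 235 CPM in shRenilla. Its log2 fold change with shAsns-2 was -0.03 (SE 0.08, 95% interval -0.21 to 0.14). Atp5g1 and Atp5g2, with the higher fold changes, are thus the less abundant of the 3.

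Of the peripheral stalk, which holds the head still, Atp5f1 (subunit b) was at 128 CPM in the library labelled shAsns-1, 105 and 110.0 CPM in shAsns-2, and 112 and 138 CPM in shRenilla. It had the lowest log2 fold change of the complex with shAsns-2, at -0.21 (SE 0.10, edgeR adjusted p = 0.504). Atp5j was at 77.9 and 72.1 CPM in shAsns-2 and at 89.5 CPM in the library labelled shAsns-1, a difference of -0.26 between the hairpins (SE 0.11, edgeR adjusted p = 0.244). Its controls, at 75.8 and 84.2 CPM, lay between these hairpins' extremes.

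The small membrane subunits went in different directions. Atp5l (subunit g) was at 45.3 CPM in the library labelled shAsns-1, 40.9 and 37.9 CPM in shAsns-2, and 36.0 and 28.8 CPM in shRenilla. Both controls were below all 3 of the others. Its log2 fold change in the library labelled shAsns-1 was 0.48 (SE 0.14, edgeR adjusted p = 0.0563), the highest of the complex, and 0.28 with shAsns-2 (SE 0.11, edgeR adjusted p = 0.446). Without shRenilla A the first value was 0.65 and was called (edgeR adjusted p = 0.0323); leaving out shRenilla B instead gave 0.33 (edgeR adjusted p = 0.123). Atp5j2 (subunit f) was at 37.2 CPM in the library labelled shAsns-1 and 37.0 and 38.1 CPM in shAsns-2, below 42.7 and 42.6 CPM in shRenilla. Its log2 fold change of -0.20 in the library labelled shAsns-1 (SE 0.12, edgeR adjusted p = 0.376) was the lowest of the complex there. Atp5sl, which is low, differed by 0.43 between the hairpins (SE 0.26, edgeR adjusted p = 0.425).

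The spread between the controls was as large as many of these differences. The log2 ratio of shRenilla B to shRenilla A was larger in size than the log2 fold change with shAsns-2 for 37 of 76 members, and larger than that of the library labelled shAsns-1 for 38. It went from -0.56 to 0.68 over the members and exceeded 0.25 in size for 17, or 22.4%. Over 9611 tested genes at the members' level it did so for 16.0%. The same ratio within shAsns-2 exceeded 0.25 for 8 members, or 10.5%, against 9.97% of those genes. Uqcrb and Cox6b1 were much higher in shRenilla B, and Atp5e much lower. Of 33 single fold changes against shRenilla recomputed with each control left out, 20 turned sign or moved by over 1.5 times without one of them. That of Ndufb3 with shAsns-2 was -0.41 without shRenilla A and -0.06 without shRenilla B, and that of Atp5f1 was -0.35 and -0.05. Atp5d moved from 0.34 to 0.19 without shAsns-2 A.

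The difference between the hairpins went with the base composition of the transcripts. Over the 76 members, which share their libraries, the difference between shAsns-2 and the library labelled shAsns-1 had a Spearman correlation of 0.671 with the GC content of the transcript. Over 5586 well-expressed genes the same value was 0.456, so the relation is not limited to the members. Uqcrb, at the low end of GC content, had the lowest difference (-0.48). Against shRenilla the correlation with GC content was 0.36 for shAsns-2 and -0.268 for the library labelled shAsns-1, beside 0.0401 and -0.392 over the well-expressed genes. The correlation of the 2 comparisons with transcript length was -0.283 and -0.364, beside 0.0709 and -0.149. The members' transcripts are short, with a median of 743.5 bases against 2720 over the tested genes, and similar in GC content, at 51.7% against 50.4%. The part of GC content and length in single differences was not tested, beyond the alternatives that remove these trends.

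**Figure D5:**
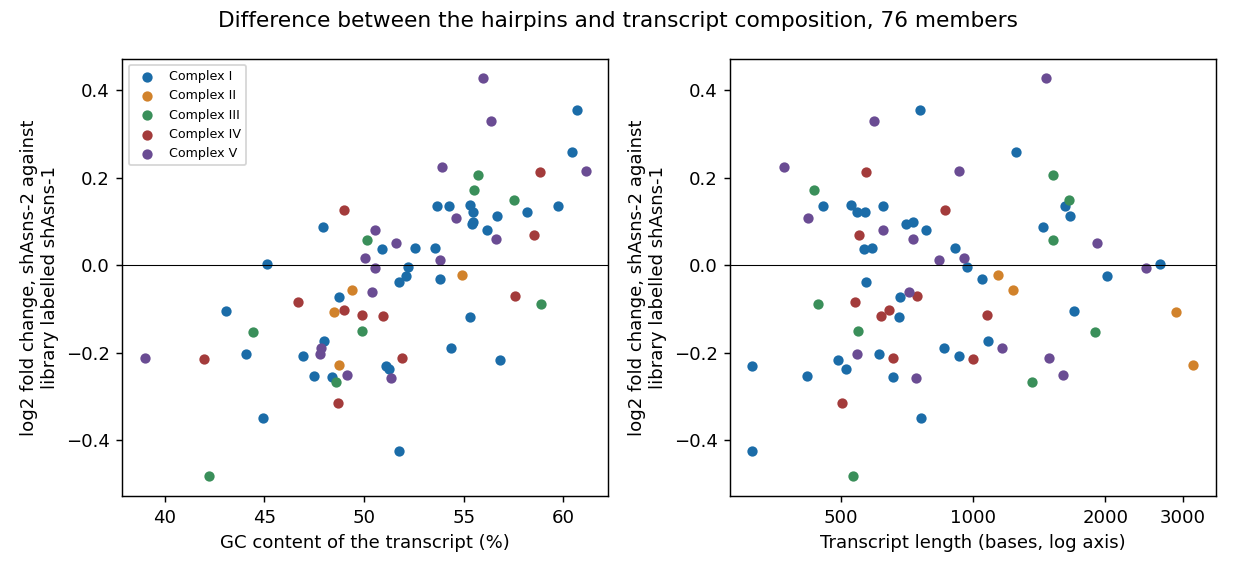
Log2 fold change of each of the 76 members between shAsns-2 and the library labelled shAsns-1, against the GC content (left, %) and the length (right, bases, log axis) of its transcript. Colours mark the complexes. The difference goes up with GC content (Spearman correlation 0.671) and shows little relation to length (0.0705).

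Few genes that work with the complexes were called, by lists chosen with earlier results of these data known. With shAsns-2, none of 39 assembly factors, 10 genes of cytochrome c and ubiquinone synthesis, 14 of the tricarboxylic acid cycle, 12 regulators of mitochondrial genes, 7 of ATP export and 76 of the mitochondrial ribosome passed. Their medians lay from -0.11 (cytochrome c and ubiquinone) to -0.04 (regulators and assembly factors), beside -0.00 over all genes. Below 0 were 12 of 14 tricarboxylic acid cycle genes and 50 of 76 mitochondrial ribosomal genes, where 50.3% of all genes were. These counts were 10 and 42 in the library labelled shAsns-1, where 51.3% of all genes were. At an unadjusted p under 0.05, 8 genes of the mitochondrial ribosome were lower with shAsns-2 (4.05% of all genes) and 1 was higher (5.59%). With the library labelled shAsns-1 there were 2 lower (9.54%) and 1 higher (10.0%). Of the assembly factors, 5 were lower and 2 higher with shAsns-2, against 4 and 1 in the library labelled shAsns-1. At the adjusted threshold 3 genes of these lists were called in that library, where 4.37% of all genes were. Atpaf1, the assembly factor that binds the β subunit of the ATP synthase, rose by 0.59 on the log2 scale (SE 0.16, edgeR adjusted p = 0.0454). Pprc1, a coactivator of respiratory genes, fell by 0.41 (SE 0.10, edgeR adjusted p = 0.0276). Mrps6 of the mitochondrial ribosome rose by 0.40 (SE 0.11, edgeR adjusted p = 0.0472).

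Of 80 tested cytosolic ribosomal protein genes, whose messages are also short and abundant, 1 was called with shAsns-2 and 2 in the library labelled shAsns-1, all higher, where 0.0642% and 4.37% of all genes were called. Rplp1 rose by 0.48 with shAsns-2 (SE 0.08, edgeR adjusted p = 0.0349) and by 0.38 in the library labelled shAsns-1 (SE 0.10, edgeR adjusted p = 0.0391). Rps20 rose by 0.40 in the library labelled shAsns-1 (SE 0.10, edgeR adjusted p = 0.0265). The medians of these 80 genes were 0.07 and 0.04. At an unadjusted p under 0.05, 21 were higher and 6 lower with shAsns-2 (5.59% and 4.05% of all genes), and 9 were higher and 4 lower in the library labelled shAsns-1 (10.0% and 9.54%). Between the hairpins no gene of these lists was called. In the library labelled shAsns-1, the calls of Atpaf1, Pprc1, Mrps6, Rplp1 and Rps20 were each lost without shAsns-2 A (edgeR adjusted p from 0.0662 to 0.116) and without shAsns-2 B (0.0629 to 0.115). The call of Rplp1 with shAsns-2 was lost without shAsns-2 A, shAsns-2 B or shRenilla B (edgeR adjusted p 0.998, 0.166 and 0.195).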

How the data were processed

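The deposited table holds counts of reads per gene made by the authors, as whole numbers and not normalised. The tools were Bowtie2 and HTSeq and the build mm10, per the submitters' processing notes, and per the labels' protocols RNA was taken with Trizol and libraries were made with the Nugen Ovation RNAseq V2 kit. Tool versions, the gene models and strandedness were not given in the sources used here. Reads assigned to no gene were left out of the library sizes. In all libraries 36.1 to 38.3% of reads fell in no feature and 17.9 to 23.2% were unaligned.

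The empty column of shAsns-1 B was left out, so the planned fit used 5 libraries (2 residual degrees of freedom) and takes the remaining shAsns-1 library to vary as the other groups do. The fit was made with edgeR 4.0.16 under R 4.3.3 (filterByExpr by group, TMM, 1 quasi-likelihood fit, Benjamini-Hochberg over 12457 genes, called at an adjusted p under 0.05). The biological coefficient of variation was 6.23%. The scripts were tested on simulated data. With 10244753 to 15955168 gene reads, the median SE of a member's log2 fold change was 0.10 to 0.12. Alternatives used DESeq2 1.42.0, limma 3.58.1 (voom), other scaling factors, no filter, a replicate block, trends with GC content or length removed, 1 library left out at a time, and members without Atp5s, Atp5sl and Cox7a2l. CPM per kilobase used the lower median length of the RefSeq-matched coding transcripts of GENCODE vM21.

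Members and lists were chosen with earlier results of these data known. Named members were those called, the highest and lowest fold change of each complex and comparison, the Sdh genes, the tissue isoforms, the c ring genes and the 2 highest per kilobase in each complex. Of the related lists, called genes are named. Chi-square per degree of freedom, over genes with at least 20 reads, was 3.17 between the shAsns-2 libraries and 9.20 between the controls, so neither pair is a duplicated library. On this measure shRenilla A lay closer to the shAsns-2 pair (6.88 from its library A, 5.29 from its library B) than to its fellow control. Measured from shRenilla B, these distances were 10.2 and 8.69. The gap between the controls was thus larger than most of their gaps to shAsns-2, which limits every comparison of shAsns-2 with shRenilla.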

Additional observations from a re-analysis of the deposited data

How the results depend on the processing

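The number of members called was the same with the RLE and upper-quartile factors, DESeq2, limma-voom, the length trend removed, and without Atp5s, Atp5sl and Cox7a2l. Without the filter on low counts 3 members were called with shAsns-2 (Atp5d, Atp5e and Atp5g1, all higher) and 3 in the library labelled shAsns-1 (Cyc1 lower, Atp5l and Ndufc1 higher). With the GC trend removed 0 were called in the library labelled shAsns-1. Leaving out each library in turn gave 0 to 2 members with shAsns-2, 0 to 4 in the library labelled shAsns-1 and 0 to 1 between the hairpins. The letters A and B did not pair the libraries (correlation of deviations -0.0173). With the letter as a replicate block 5 members were called with shAsns-2, all higher (Atp5d, Atp5e, Atp5g1, Cox6a1 and Uqcr10), 2 in the library labelled shAsns-1 and 6 between the hairpins (1 higher, 5 lower). Genes called in all, 8, 544 and 267 in the 3 comparisons, became 178, 924 and 875 with the block, 114, 919 and 608 without the filter, and 3, 352 and 143 with the GC trend removed. DESeq2 called 7, 257 and 157. Leaving out a library gave 0 to 47, 290 to 825 and 58 to 642.

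The members' median log2 fold change moved in these settings by more than the SD of that median between the controls (0.00932). This SD comes from 1 pair of scaled libraries. The log2 ratio of the controls had a median size of 0.13 over single members. Passing the SD thus does not set a shift apart from the spread of single members. With the length trend removed it was -0.0178 with shAsns-2, 0.0238 in the library labelled shAsns-1 and 0.000208 between the hairpins. Without the filter the last 2 were 0.0489 and -0.0106, and with the block 0.0594 and -0.0393. With the GC trend removed the median between the hairpins was -0.0517. Leaving out a library gave -0.00599 to 0.0208 with shAsns-2, 0.0693 to 0.0789 in the library labelled shAsns-1 and -0.0550 to -0.0109 between the hairpins. The sign turned for Atp5g3 with shAsns-2 (-0.118 to 0.0427 over libraries left out), Cox6b1 with shAsns-2 (-0.379 to 0.209), Sdha with shAsns-2 (-0.0365 to 0.253) and Cox4i1 in the library labelled shAsns-1 (-0.122 to 0.0932, 0.0590 with the GC trend removed, 0.0234 with the block). The cause of these shifts was not tested. Of 85 symbols, 9 had 0 to 8 reads and were not tested.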
